A study of Homo sapiens with 6 samples.

Results

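The MCM helicase and origin licensing genes were taken as 10 genes: MCM2, MCM3, MCM4, MCM5, MCM6, MCM7, MCM10, CDC6, CDT1 and CDC45. All 10 were represented on the array, by 16 of the 22215 probe sets tested, as every probe set that the platform annotation gives to a member gene. The rule itself uses no measured value. Expression was measured in MDA-MB-231 cells, a triple-negative breast cancer line, on single-label oligonucleotide arrays in 6 samples. The dinaciclib group held 3 samples taken 12 h after the drug (arrays F, 4 and 5), and the baseline group held 3 samples taken at 0 h (arrays E, 4 and 5). Dinaciclib is a small-molecule inhibitor of several cyclin-dependent kinases, added here from a DMSO stock to serum-containing RPMI medium with antibiotics, in which both groups were grown. The labels name no dose, no solvent control and no untreated sample at 12 h, so the drug cannot be told apart from time in culture, solvent or handling. They also do not say that arrays of a group came from separate cultures, and p-values then measure only the spread between these arrays, which may be technical.

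Before a cell copies its DNA, each origin of replication is licensed. The origin recognition complex binds the origin, CDC6 and CDT1 join it, and together they load the ring-shaped MCM2-7 helicase, in which the 6 related MCM proteins occupy 1 position each, as a double hexamer around DNA. In S phase the kinases CDK and DDK convert the loaded ring into the active helicase by recruiting CDC45 and the GINS complex, and MCM10 takes part in its activation. Most of these genes are transcribed under E2F control as cells approach S phase.

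At 12 h of dinaciclib the licensing factor CDC6 was lower on both of its probe sets, at 0.266-fold and 0.357-fold of baseline, MCM3, 1 of 4 MCM4 probe sets and CDC45 were lower at 0.493-fold to 0.526-fold, and no member was called higher. In all, 5 of the 16 probe sets, from 4 of the 10 genes, fell, 0 rose and 11 did not pass (limma, with p-values adjusted by Benjamini and Hochberg, BH, under 0.05 over all 22215 probe sets). With 1 array left out, 2 to 7 member probe sets fell, and 2, both of CDC6, fell without baseline 4, without baseline 5 or without any 1 dinaciclib array. For the call on all 6 arrays, 13.4% of all probe sets fell and 3.86% rose. With 1 array left out, 1245 to 2684 of the 22215 probe sets fell. The median log2 change of the 16 probe sets was -0.70, against -0.21 for all probe sets, and 13 of the 16 changes were below 0, as were 62.1% of all. The dinaciclib arrays lay below every baseline array on 9 of the 16 probe sets, a separation seen in 26.5% of all probe sets, and above every baseline array on 0 of them, against 10.1% of all. The changes of the members ran from -1.91 to 0.38, with CDC6 at the low end and MCM7, MCM10 and MCM2, which did not pass, at the high end. In RNA from whole cultures, fewer cells in the phases that use these genes and less RNA per cell cannot be told apart.

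**Figure D1:**
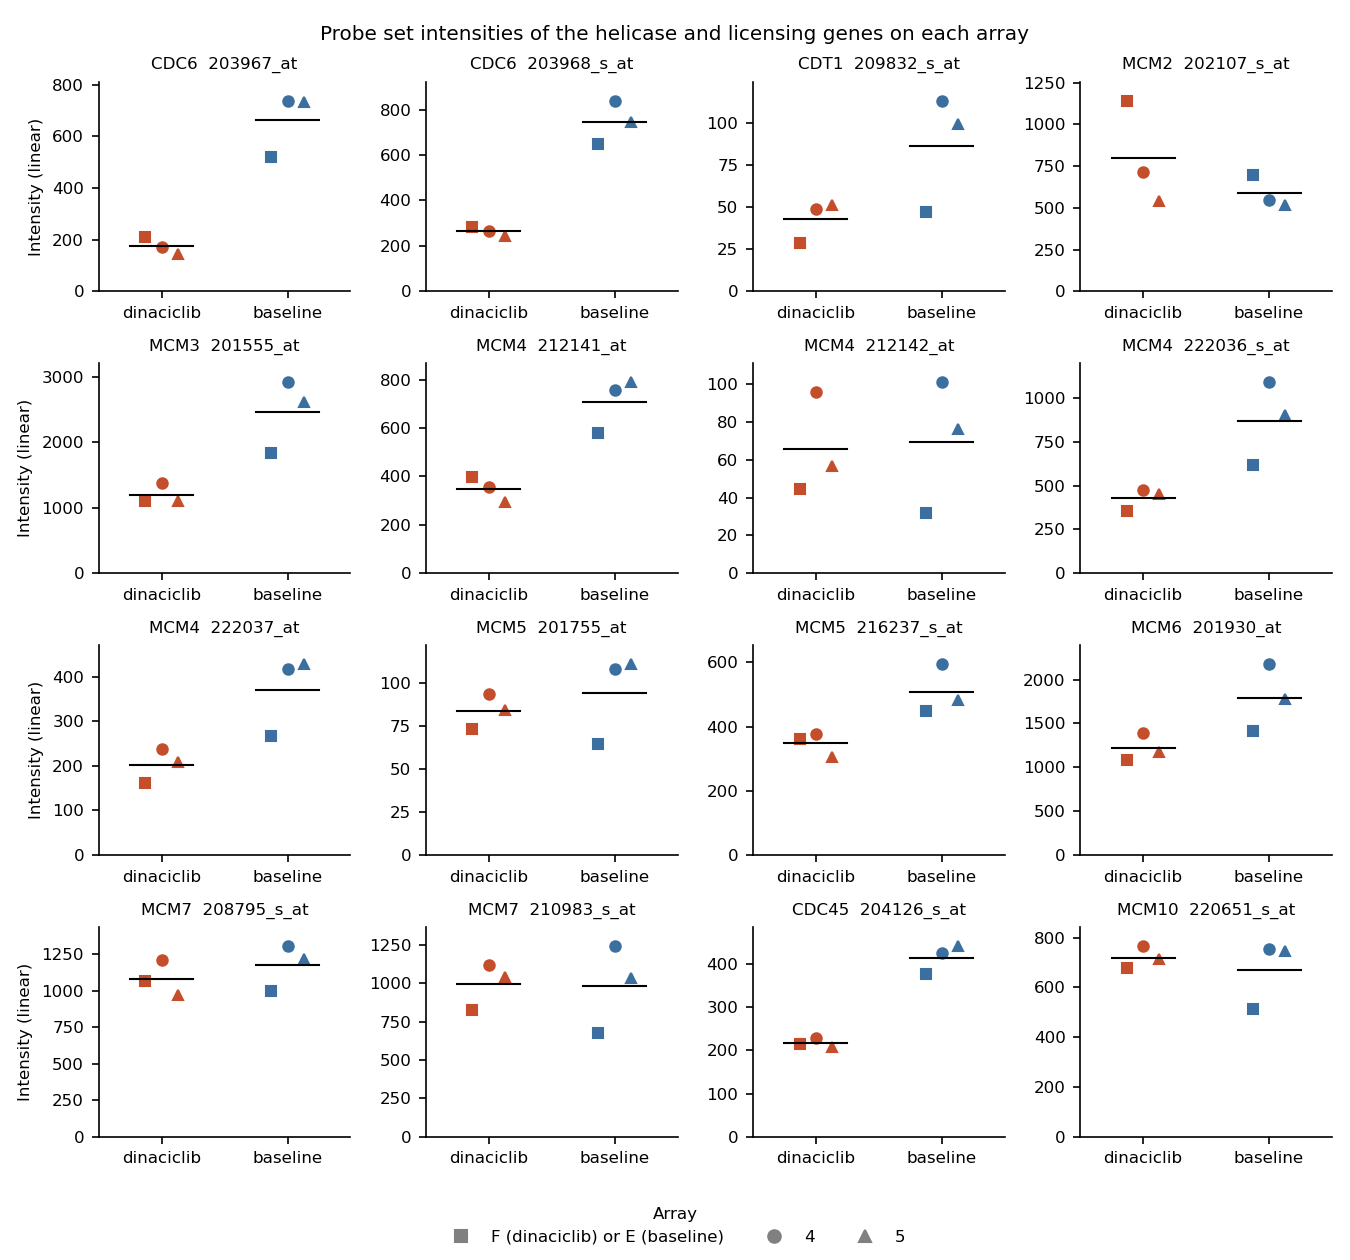
Linear intensity of each of the 16 probe sets on each array, dinaciclib on the left and baseline on the right of each panel, with squares for arrays F and E, circles for arrays 4, triangles for arrays 5, and a line at the group mean. On both CDC6 probe sets every dinaciclib array (146 to 284) lies far below every baseline array (522 to 840), while the groups overlap on both MCM7 probe sets.

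The arrays differed as a whole. Median intensities were 43.3, 46.8 and 40.6 on dinaciclib F, 4 and 5, and 53.3, 66.2 and 60.8 on baseline E, 4 and 5. The part of this shift in the members' changes was not tested, and the values under other scalings are given beside each member call they change. Centring each array on its median moved the median change of all probe sets to 0.24, quantile normalization moved it to 0.03 and centring on spiked controls moved it to -0.29, and the share of falls among all calls was 35.7%, 52.3% and 82.3% under these scalings, against 77.6% as deposited. Arrays E and F also differed from the numbered ones. The 3′ to 5′ ratio of the ACTB control probe sets, which rises as RNA is degraded, was 3.64 on dinaciclib F and 4.27 on baseline E, against 5.87 to 6.67 on the other 4 arrays. The same ratio of GAPDH did not set them apart, at 1.15 on F and 1.23 on E, against 1.17 to 1.24 on the other 4. The 5′ control probe set of 18S RNA did, at 1155 on F and 735.6 on E, against 8273 to 9061 on the other 4. Array E was the dimmest baseline array on 15 of the 16 member probe sets. The part of these differences in the results was not tested, and values from the numbered arrays alone are given beside the member calls they change. As for the cell type, the brightest probe set of VIM, a mesenchymal marker, read 7797 to 9649 over the 6 arrays, and of the 6 luminal markers, ESR1 (11.5 to 33.6), PGR (0.434 to 5.29) and CDH1 (0.439 to 13.1) lay below the array medians, whereas EPCAM (190 to 242), GATA3 (263 to 401) and KRT19 (849 to 3004) lay above them.

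The promoters are shown for 3 genes that fell and 3 whose probe sets did not pass, since E2F factors are known regulators of the family. Sequences are RefSeq's on GRCh38.p14, 250 bases before to 50 after the gene's start, 5′ to 3′ on the gene's strand, and capitals mark the letters TTTNNCGC, an E2F-like motif, on either strand. CDC6 lies at chr17:40287629-40287928 on the plus strand, MCM3 at chr6:52284693-52284992 on the minus strand and CDC45 at chr22:19479670-19479969 on the plus strand, the first of its 3 listed starts. MCM2 lies at chr3:127598161-127598460 on the plus strand, MCM7 at chr7:100101348-100101647 on the minus strand, the first of its 3 listed starts, and MCM10 at chr10:13161308-13161607 on the plus strand.
CDC6: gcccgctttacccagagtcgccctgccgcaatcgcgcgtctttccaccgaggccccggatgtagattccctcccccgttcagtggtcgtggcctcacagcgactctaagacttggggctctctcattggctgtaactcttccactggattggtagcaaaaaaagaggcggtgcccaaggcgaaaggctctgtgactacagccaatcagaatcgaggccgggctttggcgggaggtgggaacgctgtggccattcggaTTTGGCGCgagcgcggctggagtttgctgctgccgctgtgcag
MCM3: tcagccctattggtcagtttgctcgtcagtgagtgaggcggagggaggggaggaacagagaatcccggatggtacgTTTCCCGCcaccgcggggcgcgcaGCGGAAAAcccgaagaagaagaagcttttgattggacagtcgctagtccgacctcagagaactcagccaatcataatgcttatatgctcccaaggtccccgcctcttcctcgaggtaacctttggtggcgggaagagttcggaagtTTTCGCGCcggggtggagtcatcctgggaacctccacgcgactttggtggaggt
CDC45: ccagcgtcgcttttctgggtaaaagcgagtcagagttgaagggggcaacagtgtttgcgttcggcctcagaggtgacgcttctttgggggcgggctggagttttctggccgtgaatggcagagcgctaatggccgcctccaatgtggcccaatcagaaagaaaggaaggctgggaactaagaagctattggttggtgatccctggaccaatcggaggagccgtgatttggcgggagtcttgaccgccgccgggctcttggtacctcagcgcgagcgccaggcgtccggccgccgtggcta
MCM2: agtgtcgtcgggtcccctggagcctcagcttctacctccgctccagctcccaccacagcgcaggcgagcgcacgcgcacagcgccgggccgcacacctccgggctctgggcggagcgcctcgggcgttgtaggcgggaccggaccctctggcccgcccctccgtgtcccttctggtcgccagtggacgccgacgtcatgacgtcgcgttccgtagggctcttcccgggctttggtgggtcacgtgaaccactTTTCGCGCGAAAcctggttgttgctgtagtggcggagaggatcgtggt
MCM7: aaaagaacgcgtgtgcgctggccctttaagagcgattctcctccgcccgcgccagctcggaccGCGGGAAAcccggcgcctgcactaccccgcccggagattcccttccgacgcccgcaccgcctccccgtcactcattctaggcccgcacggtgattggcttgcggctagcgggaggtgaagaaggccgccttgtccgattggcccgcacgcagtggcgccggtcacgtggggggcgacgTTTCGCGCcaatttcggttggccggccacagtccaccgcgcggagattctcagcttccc
MCM10: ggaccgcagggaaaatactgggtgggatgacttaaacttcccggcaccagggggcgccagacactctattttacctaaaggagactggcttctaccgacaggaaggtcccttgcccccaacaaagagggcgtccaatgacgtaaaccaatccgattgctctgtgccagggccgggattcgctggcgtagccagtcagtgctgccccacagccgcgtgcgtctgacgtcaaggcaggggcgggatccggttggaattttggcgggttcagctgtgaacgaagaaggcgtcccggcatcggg

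The E2F-like motif occurred 1 time in the CDC6 window, from base 8 after the start, 3 times in MCM3, and 2 times each in MCM2 and MCM7, with 0 matches in CDC45 and MCM10. The 2 matches in MCM2 overlap each other on opposite strands, and the MCM7 match that begins at base -9 shares 1 base with a CCAAT box, the motif bound by NF-Y. Member windows on chromosome 8 were left out of this search, while the windows of all genes kept theirs. The windows searched came from 8 members, without MCM4, which had a probe set that fell, and without MCM5. MCM5 is not on chromosome 8, and why it had no window was not examined. Of the 8 members searched, 6 (MCM2, MCM3, MCM6, MCM7, CDC6 and CDT1) held the motif in at least 1 window. Counted by window, it was in 6 of 12, or 50%, against 6.89% of the 35116 windows of all genes. CCAAT, searched on both strands, was in 9 of the 12 windows, or 75%, against 34.6% of all. The motif was present in genes that fell (CDC6, MCM3) and in genes that did not pass (MCM2, MCM6, MCM7, CDT1), and absent from these windows in 1 gene that fell (CDC45). A match to these letters is a description of the sequence and not a mapped binding site. A window with no match can still hold other E2F-like letters. The CDC45, MCM10 and CDC6 windows each hold TTTGGCGG, which differs from the motif in the last letter alone and was not counted.

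CDC6 is the ATPase that, with CDT1, loads the helicase. Its probe set 203967_at read 210, 172 and 146 on dinaciclib F, 4 and 5, against 522, 739 and 732 on baseline E, 4 and 5. The highest dinaciclib value lay far under the lowest baseline value. The level was 7.45 ± 0.26 log2 units in dinaciclib samples and 9.36 ± 0.29 at baseline (SD, n = 3 each), a log2 change of -1.91 (SE 0.25, limma, BH-adjusted p = 0.00609). Its other probe set, 203968_s_at, read 284, 266 and 244 on the dinaciclib arrays, against 648, 840 and 747 on the baseline arrays, again with no overlap. There the log2 change was -1.49 (SE 0.20, limma, BH-adjusted p = 0.00649). The change of 203967_at lay at the 3.33 percentile of all probe sets, counted from the most negative, and that of 203968_s_at at the 7.61 percentile.

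CDC6 passed in more of the alternative settings than any other member. Both probe sets passed whichever 1 array was left out, under each of the other scalings, and on the numbered arrays alone, where the log2 changes were -2.21 and -1.63 (limma, BH-adjusted p = 0.0367 and 0.0371). Between the lettered arrays, F minus E, they were -1.31 and -1.19. Of the settings tried, only the fit with a replicate block, which called no probe set of the array, did not call CDC6.

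CDT1 brings the MCM ring to the origin and is held in check by geminin and by destruction in S phase. Its single probe set, 209832_s_at, read 28.4, 48.6 and 51.4 on dinaciclib F, 4 and 5, against 46.7, 113 and 99.2 on baseline E, 4 and 5. The groups overlapped, because baseline E read below both numbered dinaciclib arrays. Its log2 change was -0.94 (SE 0.41), and its 95% confidence interval ran from -1.94 to 0.05 (limma, BH-adjusted p = 0.184). The change was -0.48 under quantile normalization and -0.49 under median centring, and did not pass. It passed in 1 of 17 alternative settings, a batch covariate that set the lettered arrays apart (SE 0.16, limma, BH-adjusted p = 0.0211). The labels name no batch, and this split was drawn from the letters and numbers in the titles. In both sets of arrays the value was lower after dinaciclib, by a log2 change of -0.70 between the lettered arrays and -1.07 between the numbered ones (limma, BH-adjusted p = 0.053).

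**Figure D2:**
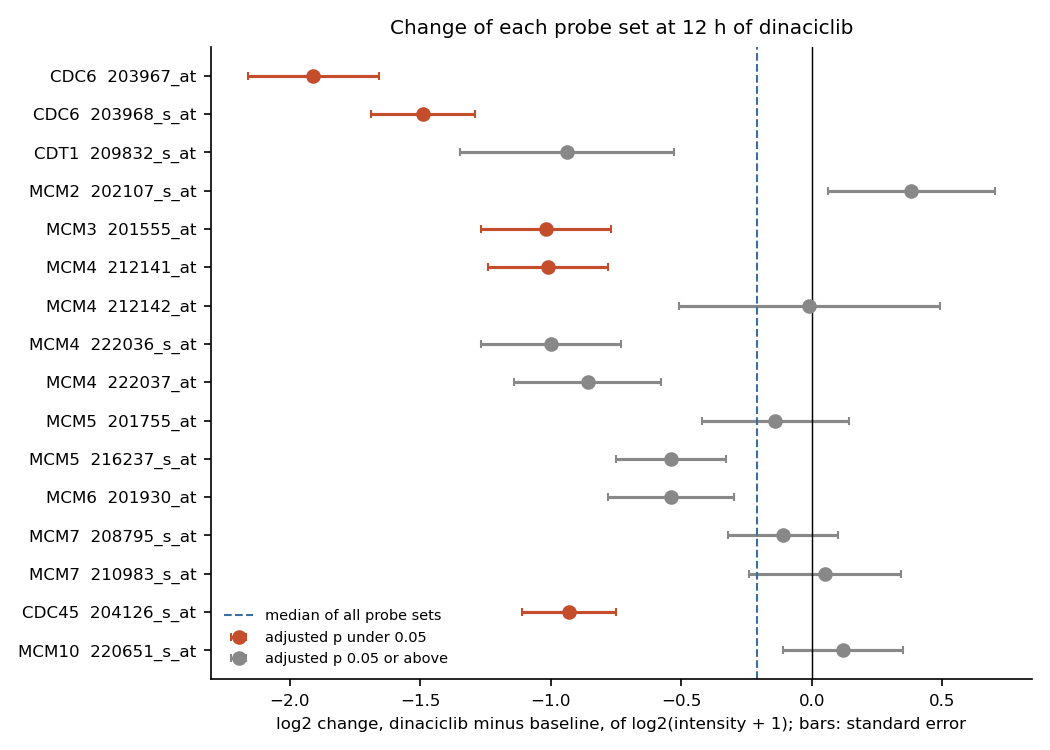
log2 change, dinaciclib minus baseline, of each probe set with its standard error, in red where the adjusted p was under 0.05 and in grey otherwise, with a dashed line at the median of all probe sets (-0.21). The CDC6 probe sets lie farthest to the left (-1.91 and -1.49), and MCM2 (0.38) lies farthest to the right.

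Of the 11 probe sets of the MCM2-7 ring, 2 fell, 0 rose and 9 did not pass, so that 18.2% fell, near the 13.4% of all probe sets. Their median log2 change was -0.54, with a range of -1.02 to 0.38. Changes were below 0 on 9 of the 11, against 62.1% of all probe sets. On 6 the dinaciclib arrays lay below every baseline array, against 26.5% of all. MCM3 and MCM4 each had a probe set that fell, and no probe set of MCM2, MCM5, MCM6 or MCM7 passed.

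MCM3, an ATPase subunit of the ring, read 1103, 1384 and 1103 on dinaciclib F, 4 and 5, against 1840, 2918 and 2617 on baseline E, 4 and 5. The groups did not overlap. Its log2 change was -1.02 (SE 0.25), or -0.81 relative to the median probe set (limma, BH-adjusted p = 0.0373). MCM3 fell under quantile normalization as well, by a log2 change of -1.04. It did not pass under median centring (-0.57, adjusted p = 0.0547 in limma), with spiked controls (-1.10, adjusted p = 0.0571), on the numbered arrays alone (-1.16, adjusted p = 0.0581) or with any 1 array other than baseline E left out (-0.88 to -1.13, adjusted p = 0.0706 to 0.126).

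MCM4, which forms a subcomplex with helicase activity with MCM6 and MCM7, had the most probe sets, 4. Probe set 212141_at read 398, 358 and 294 on dinaciclib F, 4 and 5, against 579, 759 and 789 on baseline E, 4 and 5, a log2 change of -1.01 (SE 0.23, limma, BH-adjusted p = 0.029). Probe set 222036_s_at read 357, 475 and 451 on the dinaciclib arrays and 619, 1091 and 906 on the baseline arrays, a log2 change of -1.0 (SE 0.27, limma, BH-adjusted p = 0.0542). For 222037_at the values were 161, 237 and 209 in dinaciclib samples and 267, 417 and 428 at baseline, a log2 change of -0.86 (SE 0.28, limma, BH-adjusted p = 0.0858). On these 3 probe sets the groups did not overlap, and the 3 changes differed from each other by less than their standard errors, although only the first lay under the threshold. The remaining probe set, 212142_at, was scattered, with 44.4, 95.7 and 56.6 in dinaciclib samples and 31.7, 101 and 76.4 at baseline. Its log2 change was -0.01, with a 95% confidence interval of -1.22 to 1.19 that holds the changes of all 3 other probe sets.

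MCM4 was thus called lower on 0 to 3 of its probe sets according to the fit. With the batch covariate, without dim probe sets, with a variance trend and with log2(value + 16), 212141_at, 222036_s_at and 222037_at all passed. Under quantile normalization 212141_at (-0.72, adjusted p = 0.0277) and 222036_s_at (-0.76, adjusted p = 0.0304) passed in limma, and 222037_at (-0.43) did not. Under median centring none of them did, and their log2 changes were -0.56, -0.55 and -0.40. With all probe sets of MCM4 averaged, the log2 change was -0.72 and did not pass (limma, BH-adjusted p = 0.152). When only the brightest probe set of each gene was kept, 222036_s_at passed (limma, BH-adjusted p = 0.0497). Probe set 212141_at passed on the numbered arrays alone (-1.25, adjusted p = 0.0485), but did not pass with spiked controls (-1.10, adjusted p = 0.0543) or when any 1 array other than baseline E was left out (-0.89 to -1.11, adjusted p = 0.0509 to 0.109).

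MCM5 forms with MCM2 the gate through which the ring opens around DNA. Its probe set 216237_s_at read 360, 377 and 305 on dinaciclib F, 4 and 5, against 447, 594 and 482 on baseline E, 4 and 5, with no overlap and a log2 change of -0.54 (95% confidence interval -1.04 to -0.04, limma, BH-adjusted p = 0.138). Quantile normalization took it to -0.21 and median centring to -0.09. The other, 201755_at, read 73.6, 93.7 and 84.1 in dinaciclib samples and 64.3, 108 and 111 at baseline. Here the groups overlapped, and the log2 change of -0.14 had a 95% confidence interval of -0.80 to 0.53. Its sign turned under quantile normalization (0.36) and median centring (0.31), where it did not pass either.

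MCM6 read 1082, 1392 and 1174 on dinaciclib F, 4 and 5, against 1418, 2175 and 1776 on baseline E, 4 and 5. The highest dinaciclib value lay just under the lowest baseline value. The log2 change was -0.54 (SE 0.24, limma, BH-adjusted p = 0.182). Quantile normalization left the change almost as it was, at -0.53, with a standard error of 0.12 at which it passed (adjusted p = 0.035), whereas median centring took it to -0.09.

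MCM7, a further ATPase subunit, had 2 probe sets, and neither passed. Probe set 208795_s_at read 1066, 1210 and 971 on dinaciclib F, 4 and 5, against 999, 1304 and 1218 on baseline E, 4 and 5. Probe set 210983_s_at read 825, 1117 and 1041 in dinaciclib samples and 676, 1243 and 1037 at baseline. The groups overlapped on both. Their log2 changes were -0.11 (95% confidence interval -0.61 to 0.38) and 0.05 (-0.65 to 0.74). The -1.02 of MCM3 lies outside both intervals, but its own interval, -1.62 to -0.42, overlaps both. A difference between MCM3 and MCM7 was not tested. Under median centring both changes were above 0, at 0.34 and 0.50, without passing.

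MCM2, the subunit whose tail binds histones and is phosphorylated by DDK, had the most positive change of the members. It read 1143, 714 and 541 on dinaciclib F, 4 and 5, against 699, 545 and 520 on baseline E, 4 and 5. Each lettered array was the brightest of its group, MCM2 was the single member probe set on which baseline E was not the dimmest baseline array, and the groups overlapped. The log2 change was 0.38 (SE 0.32, 95% confidence interval -0.39 to 1.16, limma, BH-adjusted p = 0.487). It was 0.71 between the lettered arrays and 0.22 between the numbered ones. Under each of the 4 scalings the change was above 0, from 0.30 with spiked controls to 0.84 with median centring, and it passed in none of the fits.

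**Figure D3:**
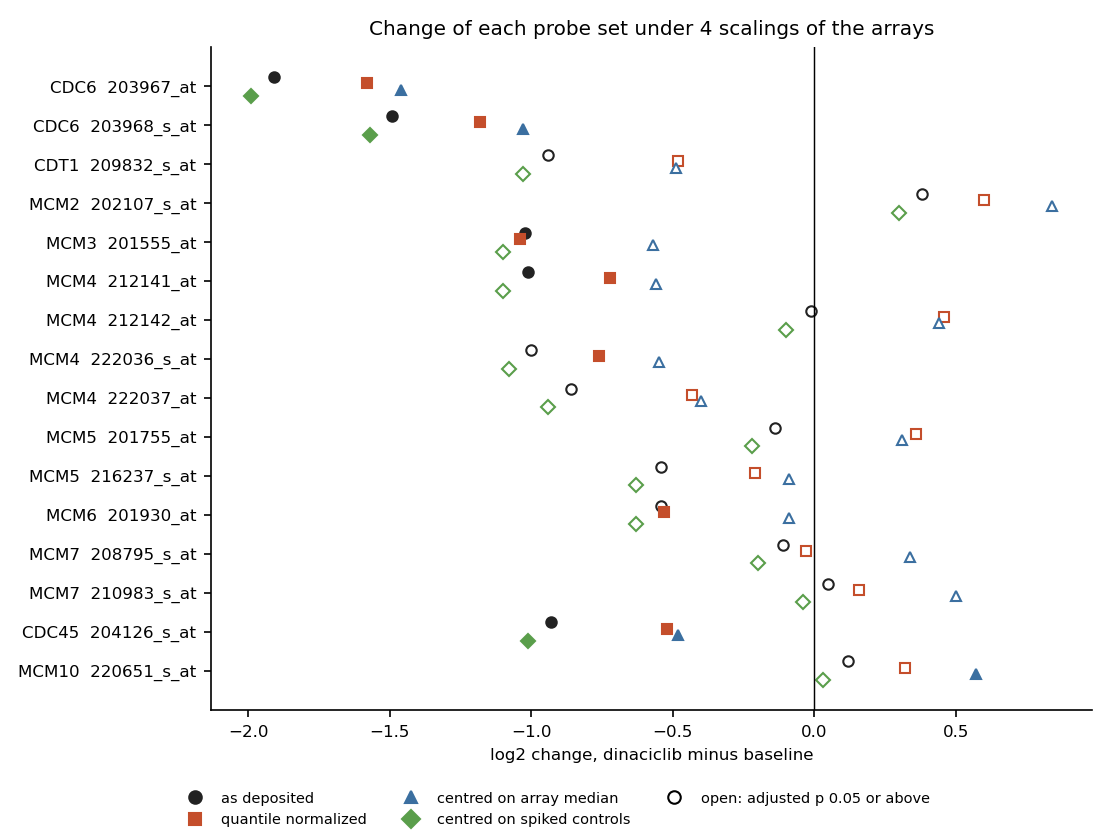
log2 change of each probe set with values as deposited (black circles), quantile normalized (red squares), centred on the array median (blue triangles) and centred on spiked controls (green diamonds), filled where the adjusted p was under 0.05. CDC6 and CDC45 are filled under all 4 scalings, and MCM10 only under median centring (0.57).

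CDC45 and MCM10 act after loading. CDC45, which completes the active helicase together with GINS, read 214, 229 and 208 on dinaciclib F, 4 and 5, against 377, 426 and 441 on baseline E, 4 and 5. The arrays within each group were close together and the groups lay far apart. The level was 7.77 ± 0.07 log2 units in dinaciclib samples and 8.70 ± 0.12 at baseline (SD, n = 3 each), a log2 change of -0.93 (SE 0.18, limma, BH-adjusted p = 0.0191). It was -0.82 between the lettered and -0.98 between the numbered arrays. CDC45 passed under every scaling tried, with log2 changes of -0.52 after quantile normalization, -0.48 after median centring and -1.01 with spiked controls. These lay just under the threshold (limma, BH-adjusted p = 0.0403, 0.0477 and 0.0464). On the numbered arrays alone its adjusted p in limma was 0.0557, and with any 1 array other than baseline E left out it lay between 0.0556 and 0.0859.

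MCM10, a scaffold of helicase activation and polymerase loading, read 678, 766 and 713 on dinaciclib F, 4 and 5, against 514, 754 and 747 on baseline E, 4 and 5. The groups overlapped, and only baseline E stood below the rest. The log2 change of 0.12 had a 95% confidence interval of -0.43 to 0.66 (limma, BH-adjusted p = 0.783). It was 0.40 between the lettered arrays and -0.02 between the numbered ones. Median centring made it a rise, at 0.57 with an adjusted p = 0.047 in limma.

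The remaining steps of licensing and origin firing were followed with 7 further lists of 55 genes, of which 49 had 79 probe sets. Of these, 25 fell, 1 rose and 53 did not pass (limma, BH-adjusted p under 0.05), and their median log2 change was -0.54. Leaving out 1 array gave 10 to 26 falls, with 10 without baseline 4 or 5, 12 without dinaciclib 4 and 13 without dinaciclib 5, and 0 rises. In these fits 1245 to 2684 of all 22215 probe sets fell and 362 to 629 rose. The share that fell, 31.6%, compares with 31.2% of the members and 13.4% of all probe sets.

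In the origin recognition complex, which marks the origin, 4 of 9 probe sets fell and 0 rose. ORC2 read 74.3, 88.6 and 63.9 on dinaciclib F, 4 and 5, against 223, 267 and 245 on baseline E, 4 and 5, a log2 change of -1.69 (SE 0.21, limma, BH-adjusted p = 0.00562). ORC5 fell on 2 of 3 probe sets, with log2 changes of -1.33 and -1.06 (limma, BH-adjusted p = 0.0177 and 0.0333), and had -0.24 on the third. Among genes that control licensing, 3 of 15 probe sets fell and 0 rose. MCMBP, which encodes an MCM-binding protein, read 111, 73.6 and 73.3 in dinaciclib samples and 250, 287 and 244 at baseline, a log2 change of -1.61 (SE 0.24, limma, BH-adjusted p = 0.00849). CUL4A, a scaffold of the ubiquitin ligase that destroys CDT1, fell on both of its probe sets, with log2 changes of -1.12 and -1.07. GMNN, which encodes the CDT1 inhibitor geminin, had a log2 change of 0.28 and did not pass.

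For the kinases and cyclins of origin firing, 4 of 11 probe sets fell and 0 rose. CDC7, the catalytic subunit of DDK, read 348, 286 and 209 on dinaciclib F, 4 and 5, against 624, 748 and 756 on baseline E, 4 and 5, a log2 change of -1.36 (SE 0.25, limma, BH-adjusted p = 0.0159). Its activating subunit DBF4 had a log2 change of 0.75 and did not pass. CCNA2, the S-phase cyclin A, fell on both of its probe sets, with log2 changes of -1.08 and -0.93. Among factors that join CDC45 in building the active helicase, 5 of 10 probe sets fell and 1 rose. The GINS subunit GINS1 fell by 2.69, GINS3 rose by a log2 change of 1.07 on 1 of its 2 probe sets (1.20 on the other, which did not pass), and WDHD1, which links the helicase to polymerase alpha, fell on all 3 of its probe sets, with log2 changes of -1.77, -1.66 and -1.54.

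**Figure D4:**
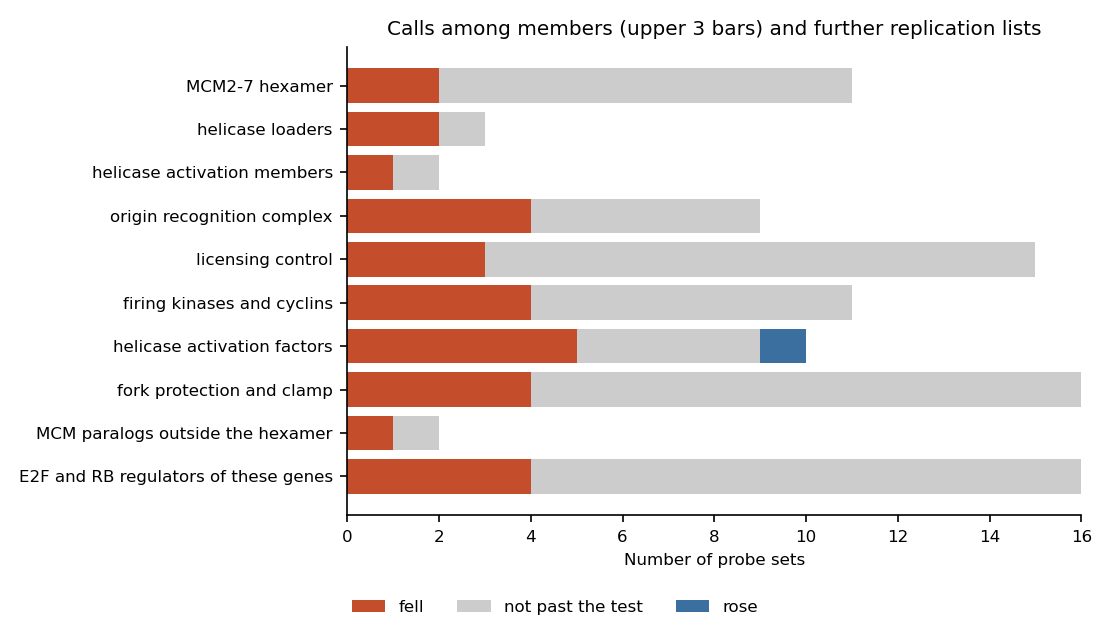
Number of probe sets that fell (red), did not pass (grey) or rose (blue) in the 3 groups of members (upper 3 bars) and in the 7 further lists. The MCM2-7 ring shows 2 falls among 11 probe sets, and the single rise is in the helicase activation factors.

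Fork protection and clamp genes fell on 4 of 16 probe sets, led by the clamp loader subunits RFC4 (log2 change -1.41) and RFC5, which fell on 2 of 3 probe sets (-1.20 and -0.85, with -0.48 on the one that did not pass), while the clamp PCNA had a log2 change of -0.31 and did not pass. MCM9, a relative of the ring subunits that acts in recombination, fell by 1.29 on the log2 scale on 1 of 2 probe sets, with -0.62 on the one that did not pass. Of the E2F and RB families, which regulate the members, 4 of 16 probe sets fell and 0 rose. E2F8, a repressor of the family, read 105, 62.7 and 61.7 on dinaciclib F, 4 and 5, against 516, 791 and 625 on baseline E, 4 and 5, a log2 change of -3.08 (SE 0.30, limma, BH-adjusted p = 0.00368). E2F5 fell by 3.02 on 1 of its 2 probe sets, the other of which, at 0.814 to 3.01 over the 6 arrays, did not pass (0.14), and E2F1, a transcriptional activator, did not pass on either probe set (-0.27 and -0.19).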

How the data were processed

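Total RNA of 6 samples had been hybridised to single-label arrays, and the table deposited by the authors holds 1 intensity per probe set and array. The values are linear and not brought to a common median. For the summary and scaling of probe brightness, the method is not given in the sources used. Samples were grouped by their titles. Probe sets were named from the platform annotation (19064 with 1 gene, 1043 with several, 2108 with none), with symbols checked by gene identifier. A probe set name ending in _s_at can match more than 1 transcript, and cross-hybridization was not checked.

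After 62 control probe sets were left out, all 22215 probe sets were tested as log2(value + 1) in limma 3.58.1 (functions lmFit and eBayes, R 4.3.3), the group being the only term, and p-values were adjusted by Benjamini-Hochberg over all of them. Fold changes are on that scale. A probe set was called at an adjusted p under 0.05. Arrays of the same group correlated at 0.963 to 0.972 (r of log2 values) and none duplicated another. The limma comparison was tested on simulated data, where the smallest falls were often missed. A probe set that did not pass may therefore still have changed. The members and lists were chosen with earlier results of these data known. All probe sets of the members are named, and in each further list the 2 largest rises and the 2 largest falls among the calls; GMNN, DBF4, PCNA and E2F1 were added after their values were seen. Alternatives were other scalings, filters, variance models, probe set summaries, pseudocounts and subsets of arrays. Plots used matplotlib 3.10.9 (Python 3.11.15).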

Additional observations from a re-analysis of the deposited data

How the results depend on the processing

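As deposited, 5 member probe sets fell and 0 rose, and in the further lists 25 fell and 1 rose. The members' count of falls became 3 with median centring, 3 with spiked controls, 3 on the numbered arrays alone, 3 of 10 genes when each gene's probe sets were averaged, and 8 with the batch covariate, and lay between 2 and 7 with 1 array left out. It was 2 without baseline 4, baseline 5, dinaciclib F, dinaciclib 4 or dinaciclib 5, both then being CDC6. Median centring gave 1 member rise, MCM10. Of all 22215 probe sets, 2971 fell as deposited, 1938 with median centring, 2418 with spiked controls, 1721 on the numbered arrays and 3514 with the batch covariate. With 1 array left out, 1245 to 2684 of them fell, and averaging gave 2053 falls among 15114 entries. In the further lists the falls became 14 genes with the mean of probe sets and 10 to 26 with 1 array left out (10 without baseline 4 or 5, 12 without dinaciclib 4, 13 without dinaciclib 5). Their rises became 9 after quantile normalization, 13 with median centring, 0 with spiked controls, 0 on the numbered arrays, 5 with the batch covariate, 5 without dim probe sets, 5 with a variance trend, 6 with log2(value + 16) and 0 whichever 1 array was left out. Rises among all 22215 probe sets were 857 as deposited, 2130 after quantile normalization, 3487 with median centring, 520 with spiked controls and 449 on the numbered arrays. They were 1186 with the batch covariate, 1291 with a variance trend, 1254 with log2(value + 16) and 362 to 629 with 1 array left out. Without dim probe sets, 1267 of 13329 rose.

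The replicate block used the letter or number of each array, so E and F each stood alone and added nothing to the changes. Its log2 changes were therefore those of the numbered arrays alone, as for CDC6 (-2.21 and -1.63 in both fits). This block leaves 1 residual degree of freedom, too few for its lack of calls to show an absence of change. With it, limma called 0 member probe sets, 0 falls and 0 rises in the further lists and 0 on the whole array. Still, 10 member probe sets had an unadjusted p under 0.05. Deviations from the group means correlated at r = 0.083 and 0.076 between same-numbered arrays and at 0.169 between F and E, whose labels share no number, against -0.111 to 0.038 in the other 6 pairs. The titles also open with a running number, which is consecutive for E and F and for each same-numbered pair. The main fit took no arrays as pairs, and a fit that also paired F with E was not run.

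Signs turned on probe sets that did not pass in either fit. MCM4 212142_at was 0.46 after quantile normalization, 0.44 with median centring, and between -0.49 and 0.33 with 1 array left out. MCM5 201755_at was 0.36 and 0.31 under those scalings, and MCM7 208795_s_at 0.34 with median centring. MCM7 210983_s_at was -0.04 with spiked controls, -0.07 with the replicate block and on the numbered arrays, and between -0.20 and 0.24 with 1 array left out. MCM10 was -0.02 with the block and on the numbered arrays, and between -0.06 and 0.21 with 1 array left out. The causes were not tested. The values of CDT1 209832_s_at and MCM4 212142_at, 28.4 to 113 and 31.7 to 101, lay near the array medians. Those of MCM5 201755_at, 64.3 to 111, lay above the median of each array but not far from it. The other member probe sets lay further above.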
